A study of Homo sapiens with 2 samples.

Results

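The miR-99/100 and miR-125 families were followed in small RNA held by FLAG-tagged Argonaute proteins in HEK293, a line of human embryonic kidney origin. The members were the 6 precursors named hsa-mir-99a, hsa-mir-99b, hsa-mir-100, hsa-mir-125a, hsa-mir-125b-1 and hsa-mir-125b-2 in the deposited count tables, written below without the species prefix, out of 1038 precursors with any count. In the pooled list of read stacks, members were the stacks whose sense annotation names 1 of these hairpins.

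Both libraries came from the HEK293 T-Rex line, 1 expressing FLAG:AGO3 and the other FLAG:AGO2. Each protein was captured with beads against the tag, so the RNA is that held by a tagged protein that the cells were made to express; RNA of untagged cells was not analysed here. The 3′ adapter also differed between the libraries, so that adapter and protein cannot be told apart. With 1 library per protein there is no replicate check, and the libraries were compared without a test or p-value.

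Both families take part in some of the oldest animal miRNA clusters, in which a miR-99/100 gene, a let-7 gene and a miR-125 gene follow one another. In Caenorhabditis elegans the relative of miR-125 is lin-4, which with let-7 sets the timing of development. In mammals miR-125 is known to repress LIN28, a protein that blocks the making of let-7, and miR-99/100 to repress the growth kinase mTOR. A miRNA finds its targets mainly through its seed, bases 2 to 8 counted from the 5′ end.

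The mature sequences of the 5′ arms, the arms best known as guides in both families, show what the members share and what separates them. They are given from RefSeq (GRCh38.p14), 5′ to 3′, with the seed in capitals; miR-10a, a relative of miR-100, is added for comparison.
miR-99a-5p: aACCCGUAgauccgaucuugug
miR-100-5p: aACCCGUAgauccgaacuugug
miR-99b-5p: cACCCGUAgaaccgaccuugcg
miR-125a-5p: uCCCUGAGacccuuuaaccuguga
miR-125b-5p: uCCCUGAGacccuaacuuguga
miR-10a-5p: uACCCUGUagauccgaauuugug

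The 3 miR-99/100 guides have the seed ACCCGUA, which no other mature human entry among the 2545 in the RefSeq table has. The miR-125 guides have the seed CCCUGAG, which the table also gives for miR-4319, a precursor listed in neither library. The guide of miR-10a, with the seed ACCCUGU, belongs to neither seed group.

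With positions counted from the 5′ end, miR-99a-5p and miR-100-5p differ only by U16A. A read of one can thus be told from the other at 1 base. From miR-99a-5p to miR-99b-5p there are 4 changes, A1C, U11A, U16C and U21C. The guides miR-125a-5p and miR-125b-5p share their first 13 bases and differ in length, 24 against 22 bases.

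Both copies of mir-125b give the same guide, and only their 3′ arms separate them.
miR-125b-1-3p: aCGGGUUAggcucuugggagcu
miR-125b-2-3p: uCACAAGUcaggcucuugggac
Set side by side without gaps these 3′ arms differ at 17 of 22 positions, but they share a run of 12 bases that starts at position 8 of the first and position 10 of the second. A read of miR-125b-5p can belong to either copy, and the labels and headers do not say how such reads were placed. The counts of mir-125b-1 and mir-125b-2 as single precursors are therefore uncertain.

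The libraries held 4667236 reads for AGO3 and 6674064 for AGO2, of which 3055417 (65.5%) in AGO3 and 3485257 (52.2%) in AGO2 were counted on miRNA precursors. Levels are given as CPM, the count after scaling the precursor counts of a library to a total of 1000000, and each count covers both arms of a hairpin. Intervals are 95% intervals, exact binomial (Clopper-Pearson) for shares and ratios and exact Poisson for counts, and they cover counting error only.

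The 2 families shifted in opposite directions between the libraries when scaled to precursor counts. The miR-125 family took 0.355% (0.348 to 0.362) of the AGO3 counts and 0.182% (0.177 to 0.186) of the AGO2 counts, from 10850 counts in AGO3 and 6330 in AGO2, a log2 ratio of AGO3 over AGO2 of 0.97 (0.92 to 1.01). The miR-99/100 family took 0.556% (0.547 to 0.564) of the AGO3 counts and 0.693% (0.684 to 0.701) of the AGO2 counts, from 16976 counts in AGO3 and 24142 in AGO2, a log2 ratio of −0.32 (−0.35 to −0.29), which turns to 0.01 when scaled to all reads of each library. Added up, the 6 members made 0.911% of the AGO3 and 0.874% of the AGO2 counts, a log2 ratio of 0.06 (0.04 to 0.08) that turns negative with TMM (−0.10) or median-of-ratios scaling (−0.03).

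The balance between the families does not depend on the scaling. Within each library, the miR-125 family made up 39.0% (38.4 to 39.6) of the members' counts in AGO3 and 20.8% (20.3 to 21.2) in AGO2, an odds ratio of 2.44 (2.35 to 2.53). In both libraries the miR-99/100 family was the larger of the pair, by 1.56 times in AGO3 and by 3.81 times in AGO2. These values could change if reads that match both mir-125b copies were counted at both or dropped.

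**Figure D1:**
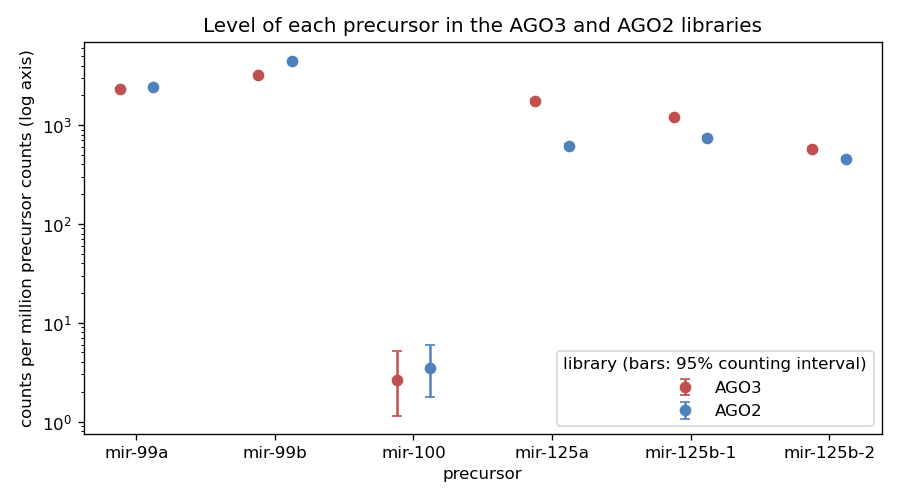
Level of each precursor in CPM (log axis) in the AGO3 library (red, left of each pair) and the AGO2 library (blue), with 95% counting intervals as bars. The 3 miR-125 precursors lie higher in AGO3, mir-99b lies lower, the points of mir-99a nearly meet, and mir-100 stands far below the rest in both libraries.

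Of the miR-125 precursors, mir-125a stood furthest towards AGO3. The count of hsa-mir-125a was 5427 (1776 CPM, 1729 to 1824) in AGO3 and 2141 (614 CPM, 589 to 641) in AGO2. Its rank among precursors was 97 in AGO3 and 142 in AGO2. This is a 2.89-fold higher share in AGO3, a log2 ratio of 1.53 (1.46 to 1.60), and its counting interval lies wholly beyond 2-fold.

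The copy hsa-mir-125b-1 had 3666 counts (1200 CPM, 1161 to 1239) in AGO3 and 2604 counts (747 CPM, 719 to 776) in AGO2, a log2 ratio of 0.68 (0.61 to 0.76). For hsa-mir-125b-2 the counts were 1757 (575 CPM, 548 to 603) in AGO3 and 1585 (455 CPM, 433 to 478) in AGO2, a log2 ratio of 0.34 (0.24 to 0.44). Both copies were thus higher in AGO3, by less than 2-fold except for mir-125b-1 at 1.01 on all reads. Their sum, which does not depend on how shared reads were split between the copies but could change if such reads were counted at both or dropped, had a log2 ratio of 0.56 (0.50 to 0.62), from 5423 counts in AGO3 and 4189 in AGO2.

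Within the miR-125 family the make-up also differed between the libraries. The share of mir-125a was 50.0% (49.1 to 51.0) of the family in AGO3 and 33.8% (32.7 to 35.0) in AGO2. In AGO3 the miR-125b copies together nearly equalled mir-125a, at 5423 and 5427 counts, whereas in AGO2 they had 1.96 times its counts, with the same doubt about shared reads. The copy mir-125b-1 held 67.6% (66.3 to 68.8) of the mir-125b counts in AGO3 and 62.2% (60.7 to 63.6) in AGO2.

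In the miR-99/100 family, mir-99b had the most counts in both libraries. The count of hsa-mir-99b was 9820 (3214 CPM, 3151 to 3278) in AGO3 and 15601 (4476 CPM, 4406 to 4547) in AGO2. The log2 ratio was −0.48 (−0.51 to −0.44), a 1.39-fold lower share in AGO3. It was below 0 under each of the 4 scalings, with −0.15 on all reads as the value nearest to 0.

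For hsa-mir-99a the levels lay close together, with 7148 counts (2339 CPM, 2286 to 2394) in AGO3 and 8529 counts (2447 CPM, 2396 to 2500) in AGO2. Its log2 ratio of −0.06 (−0.11 to −0.02) turns to 0.26 when scaled to all reads, so its direction depends on the scaling. The share of mir-99b in the counts of mir-99a and mir-99b was 57.9% (57.1 to 58.6) in AGO3 and 64.7% (64.0 to 65.3) in AGO2, so that these relatives with the same seed also differed from each other.

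The third relative, hsa-mir-100, was almost absent from both libraries. It had 8 counts (2.62 CPM, 1.13 to 5.16) in AGO3 and 12 counts (3.44 CPM, 1.78 to 6.01) in AGO2. Its log2 ratio of −0.38 has an interval of −1.89 to 1.02, so no difference was detectable at this depth. As given above, its guide is 1 base from miR-99a-5p, and the mismatches allowed in counting are not given in the sources.

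Read against all precursors, the shift of mir-125a was larger than most. Past the minimum of 100 counts over both libraries were 411 precursors and 5 of the 6 members, mir-100 being the one left out. At least 2-fold apart were 24.6% of these 411 precursors (15.8% higher and 8.76% lower in AGO3) and 1 of the 5 members, mir-125a.

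Of the 411 precursors, 36 had a higher log2 ratio than mir-125a, which ranked 37 (8.76% above it). The next member, mir-125b-1, ranked 106, mir-125b-2 ranked 160, mir-99a ranked 233 and mir-99b ranked 304. The median log2 ratio was 0.34 over the 5 members and 0.08 over all 411, whose interquartile range ran from −0.52 to 0.70. Apart from mir-125a, the members lay inside that range. A log2 ratio above 0 was found in 53.3% of the 411 precursors and in 3 of the 5 members. The mir-125b copies among these 3 members share a guide and are not independent values. Over all 411 the share depends on the scaling, from 46.2% with TMM to 66.7% on all reads, where mir-99a was also above 0.

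**Figure D2:**
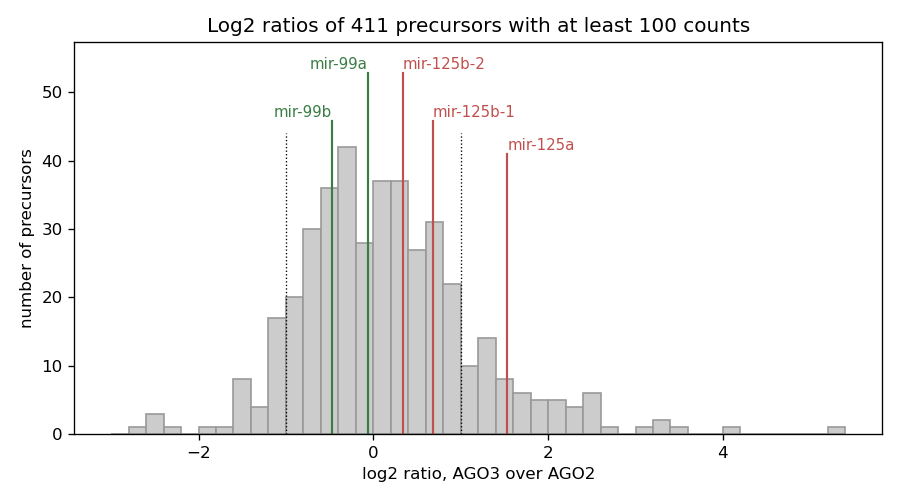
Histogram of the log2 ratio of AGO3 over AGO2 for the 411 precursors with at least 100 counts (bars, number of precursors), with a line at each of the 5 members past that minimum (green for miR-99/100, red for miR-125) and dotted lines at 2-fold. The 3 miR-125 precursors lie to the right of the 2 miR-99 precursors, and mir-125a alone lies beyond 2-fold.

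The members lie in 3 clusters, each with a let-7 gene between or beside them, and their positions are given as those of the read stacks in build hg19. On chromosome 19, in an order that follows transcription, are mir-99b (chr19:52195851-52195933, plus strand), let-7e (chr19:52196024-52196132) and mir-125a (chr19:52196501-52196602). The starts of the first and last stack lie only 650 bases apart. The annotation places the mir-125a stack in an exon of LINC00085, a name that RefSeq lists under SPACA6.

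Along this cluster the log2 ratio went up at each step, from −0.48 for mir-99b over 0.37 (0.32 to 0.42) for let-7e to 1.53 for mir-125a. The let-7e counts behind this were 7726 in AGO3 and 6827 in AGO2. From let-7a-5p to let-7e-5p there is only 1 change, U9G, and the mismatches allowed in counting are not given in the sources. Of the counts of mir-125a and mir-99b together, mir-125a took 35.6% (34.8 to 36.4) in AGO3 and 12.1% (11.6 to 12.6) in AGO2. The odds ratio was 4.03 (3.81 to 4.26), which no scaling of the libraries can change.

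Such a gap between neighbours was wide but not unique. Among 105 pairs of precursors past the minimum with stacks on the same strand at most 10 kb apart, a comparison added after the values were seen, the median gap in log2 ratio was 0.67. The gap of 2.01 between mir-99b and mir-125a was met or passed by 11 of these pairs (10.5%), itself included. The gaps to let-7e, 0.85 from mir-99b and 1.16 from mir-125a, were met or passed by 43.8% and 32.4% of the pairs. Pairs of 1 cluster share precursors and are not independent.

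On chromosome 21 the cluster holds mir-99a (chr21:17911419-17911480, plus strand), let-7c (chr21:17912135-17912226) and mir-125b-2 (chr21:17962553-17962635). The first and second starts are 0.716 kb apart and mir-125b-2 follows 51.1 kb after mir-99a. The stacks lie in introns of LINC00478, which RefSeq now calls MIR99AHG.

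Here the order of the ratios was flatter. The precursor let-7c, with 795 counts in AGO3 and 692 in AGO2, had a log2 ratio of 0.39 (0.24 to 0.54), close to the 0.34 of mir-125b-2, and both lay above the −0.06 of mir-99a. Of the counts of mir-125b-2 and mir-99a, mir-125b-2 took 19.7% (18.9 to 20.6) in AGO3 and 15.7% (15.0 to 16.4) in AGO2, an odds ratio of 1.32 (1.23 to 1.43). Between mir-125b-2 and let-7c the odds ratio was 0.96 (0.85 to 1.09), an interval that holds equal balance. As for let-7e, the guide of let-7c is 1 change from let-7a-5p, A19G, so that its counts carry the same doubt.

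The chromosome 11 cluster runs on the minus strand, from mir-100 (chr11:122022983-122023006) to let-7a-2 (chr11:122017231-122017252), whose stacks are 5.75 kb apart, and on to mir-125b-1, for which no stack was named. The annotation places mir-100 and let-7a-2 in an intron of MIR100HG. The counts in this cluster did not go together: mir-100 had 8 in AGO3 and 12 in AGO2, let-7a-2 had 11001 in AGO3 and 21290 in AGO2, and mir-125b-1 had 3666 in AGO3 and 2604 in AGO2. The log2 ratio of let-7a-2 was −0.76 (−0.80 to −0.73), opposite in sign to that of mir-125b-1. Like miR-125b-5p, the guide of let-7a-2 comes from several copies, so that the counts of let-7a-2 are uncertain as its own.

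**Figure D3:**
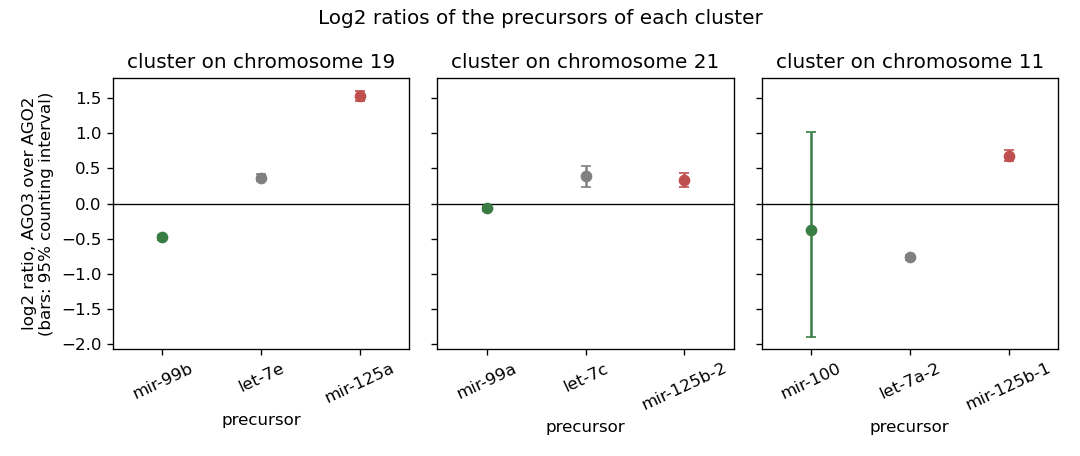
Log2 ratio of AGO3 over AGO2 for the precursors of the clusters on chromosomes 19, 21 and 11, in order of transcription, with 95% counting intervals (green miR-99/100, grey let-7, red miR-125). In each panel the miR-125 precursor lies above the miR-99/100 precursor, though the interval of mir-100, −1.89 to 1.02, takes in the 0.68 of mir-125b-1. The panels of chromosomes 21 and 11 are not independent, since mir-125b-2 and mir-125b-1 share a guide whose reads can belong to either copy. No stack was named for mir-125b-1, so how many of its counts come from chromosome 11 is not known.

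Pooled stacks gave another view of the members, since they keep position and strand. The stacks do not separate AGO3 from AGO2, and the sources do not name the libraries pooled. They hold 68649476 reads in all, 6.05 times the 11341300 reads of both libraries, so stack reads are not simply the AGO3 and AGO2 reads added up. The members held 932974 stack reads, 1.76% of the 52912652 reads in stacks that name a precursor. This share is larger than their 0.911% of AGO3 counts and 0.874% of AGO2 counts.

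Among the members the stacks were led by mir-125a, with 523698 reads (rank 24 of 1129 precursors with a stack), followed by mir-99b with 281177 (rank 43), mir-99a with 74812 (rank 97) and mir-125b-2 with 53219 (rank 113). In the library counts, both proteins added up, mir-99b ranked 58, mir-99a ranked 80, mir-125a ranked 114 and mir-125b-2 ranked 160. The order of mir-125a and mir-99b, and with it that of the families, thus differed between the sources, which need not hold the same libraries. Of the reads of this pair mir-125a had 65.1% in the stacks, against 35.6% of the counts in AGO3 and 12.1% in AGO2.

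Set against its stack reads, mir-125a had few counts. It had 14.5 counts, both libraries added, per 1000 stack reads, rank 9 from the lowest among 326 precursors that could be compared. For mir-125b-2 the value was 62.8, for mir-99b 90.4 and for mir-99a 210, with a median of 158 over the 326 precursors and an interquartile range of 61.1 to 461. The values of let-7e (81.4) and let-7c (56.4) were close to those of mir-99b and mir-125b-2. Since the libraries in the stacks are not known, the source of these differences was not tested.

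**Figure D4:**
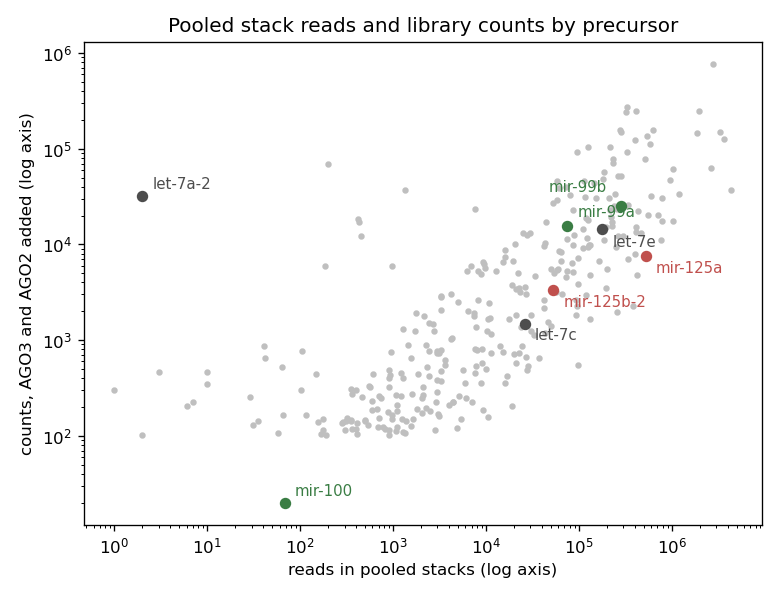
Reads in pooled stacks (log axis) against counts of AGO3 and AGO2 added (log axis), with 1 grey point for each of the 326 precursors with at least 100 counts and a stack of their own; members are green (miR-99/100) or red (miR-125), let-7 neighbours dark grey, and mir-100 is added below the minimum. The point of mir-125a lies to the right of and below mir-99b, let-7a-2 has 2 stack reads beside 32291 counts, and mir-125b-1 has no stack and is not drawn.

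The copies of mir-125b were placed differently by the count tables and the stacks. No stack carried the name of mir-125b-1, whereas the count tables gave it 67.6% of the mir-125b counts in AGO3 and 62.2% in AGO2. All 53219 stack reads named for a mir-125b copy were at mir-125b-2. The host gene MIR100HG of chromosome 11 was named by 5 stacks with 72 reads in all, of which 68 were those of mir-100 and 2 those of let-7a-2. By contrast, the LINC00478 gene of chromosome 21 was named by 26 stacks with 154438 reads, of which 59 lay outside its precursors. Which copy the miR-125b-5p reads come from cannot be told from these data, because a stack also depends on how reads that match both copies were placed. No stack was named for mir-125b-1 at either arm, also not at the 3′ arm that separates the copies. The mir-125b-2 stack was 83 bases long, against 59 for the stretch that holds both its arms. The source of this difference was not tested.

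For mir-100 there were 2 stacks, with 66 and 2 reads. Their starts lie 35 bases apart, the same as the distance between the starts of miR-100-5p and miR-100-3p in RefSeq, so that the larger one lies where the guide arm is. The reads of this larger stack comprised 48 distinct sequences, with 0.318 edits (differences from the reference) per read. This is above the 0.121 to 0.159 edits per read of the 4 members with deeper stacks, and above the interquartile range of all 690 precursor stacks with at least 100 reads, 0.124 to 0.164. With 66 reads the mir-100 stack is below that minimum, and stacks of like depth were not compared.

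The 4 deeper stacks were each longer than the stretch that holds both arms. Stretches from the first base of the 5′ arm to the last base of the 3′ arm are 59 or 60 bases long in these hairpins, and the stacks were 62 bases long for mir-99a, 83 for mir-99b, 83 for mir-125b-2 and 102 for mir-125a. The median over all 690 stacks, which start at 100 reads and include far shallower ones, was 30 bases. Length was not particular to the members, since the stacks of let-7e and let-7c were 109 and 92 bases long. Those of mir-99b and mir-125a were longer than the RefSeq hairpins of 70 and 86 bases, so that some reads began or ended outside them. The reads of mir-125a fell into 6657 distinct sequences, 78.7 reads each, those of mir-99b into 3715 (75.7 each), those of mir-99a into 1641 (45.6 each) and those of mir-125b-2 into 1459 (36.5 each).

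The precursors nearest to each member in level, by distance in log2(CPM + 1) over the 2 libraries, were mir-30a (0.18) and let-7f-2 (0.19) for mir-99a and mir-374b (0.16) and mir-23b (0.20) for mir-99b. They were mir-423 (0.44) and mir-671 (0.44) for mir-125a, mir-9-2 (0.13) and mir-3184 (0.14) for mir-125b-1, and mir-766 (0.16) and mir-582 (0.21) for mir-125b-2. With 2 libraries this says only that levels were alike.

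Of the relatives mir-10a and mir-10b, only mir-10a was far more abundant than the members, with 66789 counts in AGO3 and 79434 in AGO2. The precursor mir-10b had 9591 counts in AGO3 and 10639 in AGO2, below mir-99b in both libraries. Together mir-10a and mir-10b took 2.50% of the AGO3 counts and 2.58% of the AGO2 counts, a log2 ratio of −0.05 (−0.06 to −0.03). The value for mir-10a was −0.06 and turned to 0.27 on all reads, and that for mir-10b was 0.04, with 0.37 on all reads, −0.12 with TMM and −0.04 with median of ratios. As for mir-99a, their direction depends on the scaling.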

How the data were processed

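Small RNA from 1 FLAG:AGO3 and 1 FLAG:AGO2 library was analysed from deposited raw counts per miRNA precursor, which sum to the mapped reads in the file headers. The submitters' processing notes name Bowtie2 2.1.0 and hg19, with no role. Not given in the sources are the miRBase release, the mismatches allowed, whether strand was used and how reads matching several precursors were counted. The deposited stack list gives reads per stack as counts and an entropy score of each stack, per the file fields; the score was not used.

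Log2 ratios of AGO3 over AGO2 compare shares of precursor counts after adding a pseudocount of 0.5, scaled to library size; intervals are exact 95% intervals. A precursor was called apart at 2-fold, with a minimum of 100 counts over both libraries. In all, 10 pairs of precursors or groups were compared by odds ratio within the libraries (conditional estimate, exact interval). Intervals cover counting error only, since no molecular identifiers separate PCR copies. The procedure was checked on simulated Poisson counts with known changes. These held no variation between libraries, adapters or read placement. They were also set against the totals of the real libraries, not their own. The check thus covers the ratio formula and counting error only, and not the scaling to a library's total.

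Precursors named were the members, their let-7 neighbours, mir-10a and mir-10b, precursors that share a seed, and the 2 nearest in level to each member. Members and lists were chosen with earlier results of these data known. Sequences are from RefSeq (GRCh38.p14); hg19 stack positions were not converted. Alternatives covered TMM (edgeR 4.0.16), median of ratios over precursors past the minimum, all reads, a pseudocount of 5, other count minimums and stricter sets of stacks. Software versions were R 4.3.3, scipy 1.17.1, Python 3.11.15, matplotlib 3.10.9, pandas 2.3.3 and numpy 2.4.6.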

Additional observations from a re-analysis of the deposited data

How the results depend on the processing

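Scaling sets the zero of every ratio. It shifted the median log2 ratio of the 411 precursors by −0.16 with TMM, by −0.08 with median of ratios and by 0.33 on all reads, and each member moved with it. The summed miR-125 family was at 0.81, 0.88 and 1.29 under these scalings, against 0.97 as reported. The summed miR-99/100 family was at −0.48, −0.40 and 0.0079, against −0.32, and the sum of all members at −0.10, −0.026 and 0.38, against 0.06. Of 24 alternative values of single members, 10 lay within the counting interval and 1 changed sign, that of mir-99a on all reads. A pseudocount of 5 moved no member past its interval. On all reads 2 members were at least 2-fold apart, against 1 under the other settings. The number of all precursors at least 2-fold apart was 101, against 436 with no minimum, 54 with a minimum of 1000 counts, because other numbers of precursors were compared, and 97 to 123 under the other alternatives. Stack reads of the members were 932906 with small stacks left out. With 1 library per protein, depth limits only mir-100. No paired analysis was possible because each group has 1 library.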

Other observations

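A transcript on the minus strand of chromosome 19 also carries the name hsa-mir-125a in the stack annotation, as a gene name and not as a hairpin. In sense it had 4 stacks of 1 or 2 reads, 7 reads in all. They were kept out of the values for mir-125a.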
